A study of Mus musculus with 12 samples.

Results

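STAT5 binding was examined at the loci of the growth hormone receptor and the insulin-like growth factor (IGF) axis in fibroblasts cultured from mouse fetuses (MEFs). The members were regions of the deposited lists, chosen by position alone: a region was included when its centre lay in 1 of 5 windows of mouse genome build mm9. The windows were 3.25 to 3.6 Mb on chromosome 15 for Ghr, 87.2 to 87.42 Mb on chromosome 10 for Igf1, 24.97 to 25.06 Mb on chromosome 17 for Igfals, 7.05 to 7.16 Mb on chromosome 11 for Igfbp3, and 72.85 to 72.98 Mb on chromosome 1 for the adjacent genes Igfbp2 and Igfbp5. They held 121 of the 156642 regions of the 3 lists, 64 of them in the Ghr window, 31 in that of Igf1, 11 in that of Igfals, 8 in that of Igfbp3 and 7 in that of Igfbp2 and Igfbp5.

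The lists came from chromatin immunoprecipitation and sequencing (ChIP-seq) with an antibody to STAT5. One list was from wild-type cells and the others were from replicates 1 and 2 (the repeat) of Stat5-/- cells that overexpress STAT5A, a genotype that the labels write as STAT5A-Stat5-/-. All cells were of C57BL/6 background, came from day 12.5 to 13.5 fetuses of Stat5+/- intercrosses and were at passage 9 to 10. Growth hormone (1 µg/ml, 45 min) followed 5 h without serum. In the labels, the replicate 2 list is named under a stimulated and also under an unstimulated repeat library. It was read as the list of the stimulated cells from the name of the list, and whether the unstimulated library entered it is not known here. The overexpressing cells thus lack their own Stat5 and carry STAT5A only. How STAT5A was introduced, and whether the replicates were separate cultures, is not stated in the labels. The other 9 of the 12 libraries of the series, which include unstimulated and Stat5-/- cells and IgG controls, were not analysed here, so no background without STAT5 stands beside the values below.

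Growth hormone binds its receptor, the product of Ghr, and the receptor activates the kinase JAK2, which phosphorylates STAT5A and STAT5B. In the liver, STAT5 is known to drive Igf1, which encodes the growth factor that carries much of the effect of the hormone, and Igfals, which encodes the acid-labile subunit of the circulating IGF complex. Igfbp3 encodes the main IGF binding protein of that complex, and Igfbp2 and Igfbp5 encode other members of the family. Mesenchymal cells, fibroblasts among them, are a known site of local IGF and IGF binding protein synthesis.

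Active STAT5 dimers bind the sequence TTCNNNGAA, a palindrome in its fixed letters and so the same on both strands. The bases under the regions could not be read, since no genome of build mm9 was used here. RefSeq promoters of build GRCm38.p6, which run from 250 bases before a gene start to 50 after it, held 10 starts of the 6 genes. TTCNNNGAA was present at 2 of these 10 starts, both of Igfals, against 8.3% of all 32851 promoters of that length (2726). The Igfals promoters with a match are shown in lower case, 5′ to 3′ on the strand of the gene (+), with the match in capitals. It lies 236 bases before the gene start in the first and 58 bases before it in the second.
Igfals start 1: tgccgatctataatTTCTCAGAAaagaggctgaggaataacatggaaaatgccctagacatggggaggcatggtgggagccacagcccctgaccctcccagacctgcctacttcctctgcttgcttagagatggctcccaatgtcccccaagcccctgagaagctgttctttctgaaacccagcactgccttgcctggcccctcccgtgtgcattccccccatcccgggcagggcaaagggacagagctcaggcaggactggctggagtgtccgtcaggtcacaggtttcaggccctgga
Igfals start 2: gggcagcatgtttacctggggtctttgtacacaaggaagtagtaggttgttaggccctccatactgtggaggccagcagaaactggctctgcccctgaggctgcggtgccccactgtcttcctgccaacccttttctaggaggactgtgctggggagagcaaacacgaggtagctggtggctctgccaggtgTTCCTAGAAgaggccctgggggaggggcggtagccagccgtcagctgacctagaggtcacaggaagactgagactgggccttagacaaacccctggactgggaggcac
A match of letters is not a bound site. Because the lists and the promoter table are of different builds, it is not known here whether any region of the Igfals window covers either match. None of the 8 other starts, of Ghr, Igf1, Igfbp2, Igfbp3, Igfbp5 and of Igfals at its remaining start, held these letters in the 300 bases searched.

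The windows of Ghr and Igf1 make up 570 of the 900 kb (63.3%) and held 13 of 14 wild-type regions (92.9%), 45 of 54 of replicate 1 (83.3%) and 37 of 53 of replicate 2 (69.8%). The replicate 2 share was thus near the share of length, and the wild-type share was the farthest above it. The wild-type list had 14 regions in the 900 kb of all windows, with 7 at Ghr, 6 at Igf1, 1 at Igfals and none at Igfbp3 or at Igfbp2 and Igfbp5. Overexpression replicate 1 had 54 and replicate 2 had 53, averaging 53.5 ± 0.707 (SD, n = 2). That is 3.82 times the count of wild type, where the ratio over all regions was 5.4. No test between genotypes was made: with 1 library against 2, an exact permutation test cannot give a p below 0.333 (one-sided) or 0.667 (two-sided). In addition, the number of regions called depends on library depth, which is unknown here. As background, the autosomes averaged 0.545 regions per 100 kb for wild type, and 2.9 and 2.91 for the overexpression replicates.

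**Figure D1:**
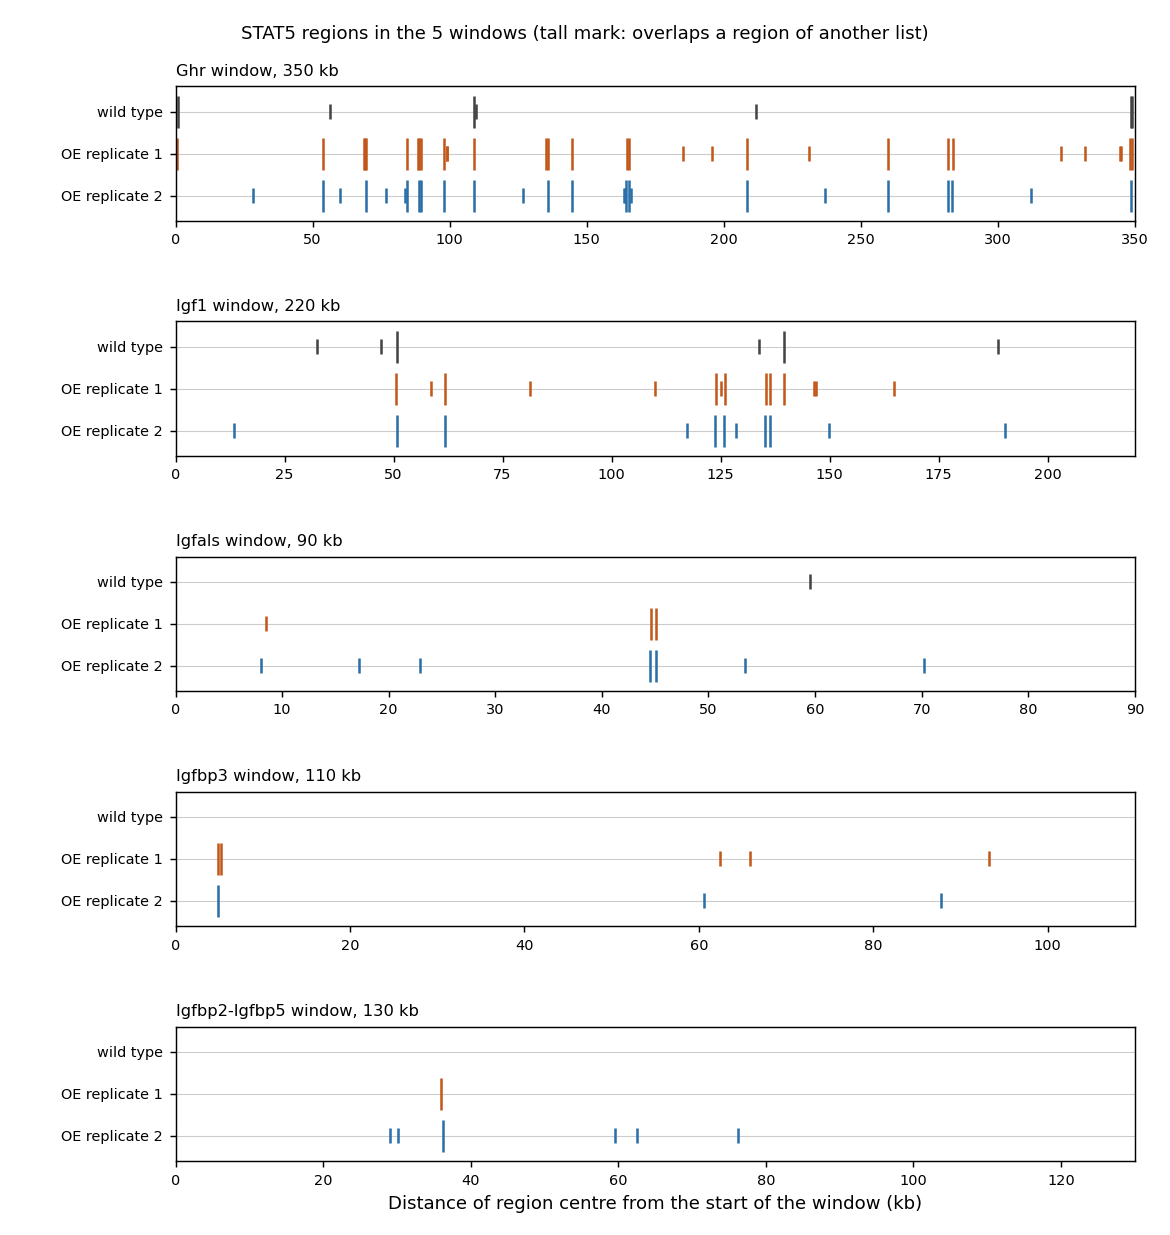
Positions of all 121 regions in the 5 windows, by list; the x axis is the distance of the region's centre from the start of the window in kb. Tall marks overlap a region of another list by at least 1 bp. The Ghr and Igf1 windows hold marks in all 3 rows, and the Igfbp3 window and the Igfbp2 and Igfbp5 window have none in the wild-type row.

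The Ghr window, 350 kb long, held 7 wild-type regions, 31 of replicate 1 and 26 of replicate 2. That is 2.0, 8.86 and 7.43 regions per 100 kb, or 3.67, 3.05 and 2.55 times the autosomal average of each list. All 3 lists were therefore denser here than on average, and by similar factors. Among 6869 autosomal windows of 350 kb, 3.25% held at least 7 wild-type regions, 4.16% at least 31 of replicate 1 and 7.56% at least 26 of replicate 2. The overexpression mean was 28.5 ± 3.54 (SD, n = 2), which is 4.07 times the wild-type number. The median autosomal window of this length held 1 region in wild type and 8 in each overexpression replicate. On chromosome 15 itself the medians were 1, 11 and 10.5 regions, so this chromosome is denser than the autosomes in the overexpressing cells. Among its 286 windows, 2.1% held at least 7 wild-type regions, 6.99% at least 31 of replicate 1 and 10.5% at least 26 of replicate 2. The Ghr window was thus less unusual on its own chromosome in both replicates, and not in wild type.

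At the Igf1 window, 220 kb long, the wild-type list had 6 regions, replicate 1 had 14 and replicate 2 had 11. Relative to the autosomal averages the wild-type density was 5.0 times as high, and those of replicates 1 and 2 were 2.19 and 1.72 times as high. The overexpression mean was 12.5 ± 2.12 (SD, n = 2), which is 2.08 times the wild-type number. The relative density of wild type was not the higher in every setting. In 1 alternative, every list was reduced to as many of its widest regions as wild type has. The overexpression mean was then 5.02 times the average (7 and 5 regions), against 5.0 in wild type. That setting selects regions by width as well as shortening the lists, and why the difference was gone was not tested. At least 6 wild-type regions stood in 1.84% of 10935 autosomal windows of this length, at least 14 replicate 1 regions in 14.6% and at least 11 replicate 2 regions in 24.6%. Chromosome 10 is dense in all lists, with medians of 2, 8 and 8 regions in windows of this length against 1, 4 and 5 on the autosomes, and among its own 577 windows the shares were 12.7%, 28.4% and 37.4%. Read against its own chromosome, the Igf1 window was therefore less unusual in each list.

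**Figure D2:**
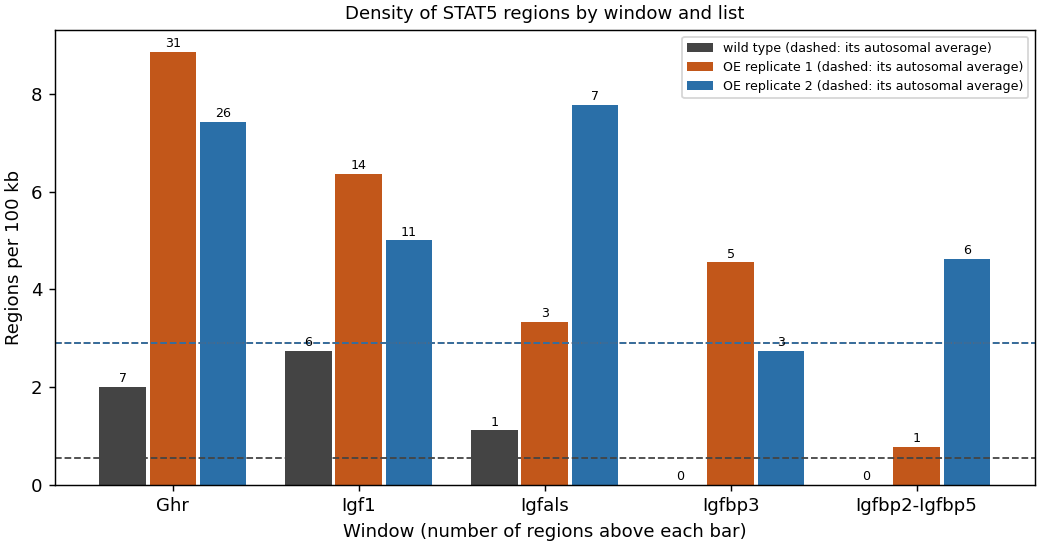
Regions per 100 kb (y axis) in each window (x axis) for wild type and overexpression (OE) replicates 1 and 2; numbers above the bars are regions, and dashed lines are the autosomal averages of the lists, which nearly coincide for the replicates. All bars of Ghr and Igf1 are above the average of their own list. The replicate bars differ most at Igfals, with 3.33 and 7.78 regions per 100 kb, and next at Igfbp2 and Igfbp5, with 0.769 and 4.62.

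The Igfals window, 90 kb long, held 1 wild-type region, 3 regions of replicate 1 and 7 of replicate 2. The replicate mean of 5.0 ± 2.83 (SD, n = 2) differed from the wild-type count by no more than the replicates differed from each other. Of 26743 autosomal windows of that length, 33.9% held at least as many wild-type regions, 37.3% as many of replicate 1 and 12.2% as many of replicate 2. On chromosome 17 the shares of its 1024 windows were 34.4%, 32.0% and 10.2%. The wild-type value rests on the edge of the window, since a further region has its centre 0.13 kb before the start. Counting any overlap gives 2 wild-type regions, a relative density of 4.08 in place of 2.04, and 10.5% of autosomal windows held at least 2. In RefSeq the nearest protein-coding genes are Fahd1 and Nubp2, and regions of this window may belong to those as well as to Igfals.

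The Igfbp3 window of 110 kb had no wild-type region, 5 of replicate 1 and 3 of replicate 2, a mean of 4.0 ± 1.41 (SD, n = 2). An empty window is common in wild type: 61.1% of 21877 autosomal windows of that length had no region. At least 5 replicate 1 regions stood in 27.9% of them and at least 3 replicate 2 regions in 44.9%. Among 1080 windows of chromosome 11 the shares were 58.3%, 27.9% and 54.9%. Igfbp1, which encodes another IGF binding protein, is the neighbour of Igfbp3 in RefSeq, and Tns3 is the neighbour on the other side.

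At Igfbp2 and Igfbp5, neighbours of each other, the 130 kb window had no wild-type region, 1 region of replicate 1 and 6 of replicate 2. The mean of 3.5 ± 3.54 (SD, n = 2) has an SD as large as itself. Of 18510 autosomal windows of that length, 56.3% had no wild-type region, 67.8% had at least 1 region of replicate 1 and 28.5% at least 6 of replicate 2. Among 1489 windows of chromosome 1 the shares were 59.6%, 64.1% and 25.3%. None of these counts set the Igfbp2 and Igfbp5 window apart from the rest of the genome. Over the binding protein loci together, then, binding was no denser than on average in wild type, and no such excess was seen in both overexpression replicates.

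**Figure D3:**
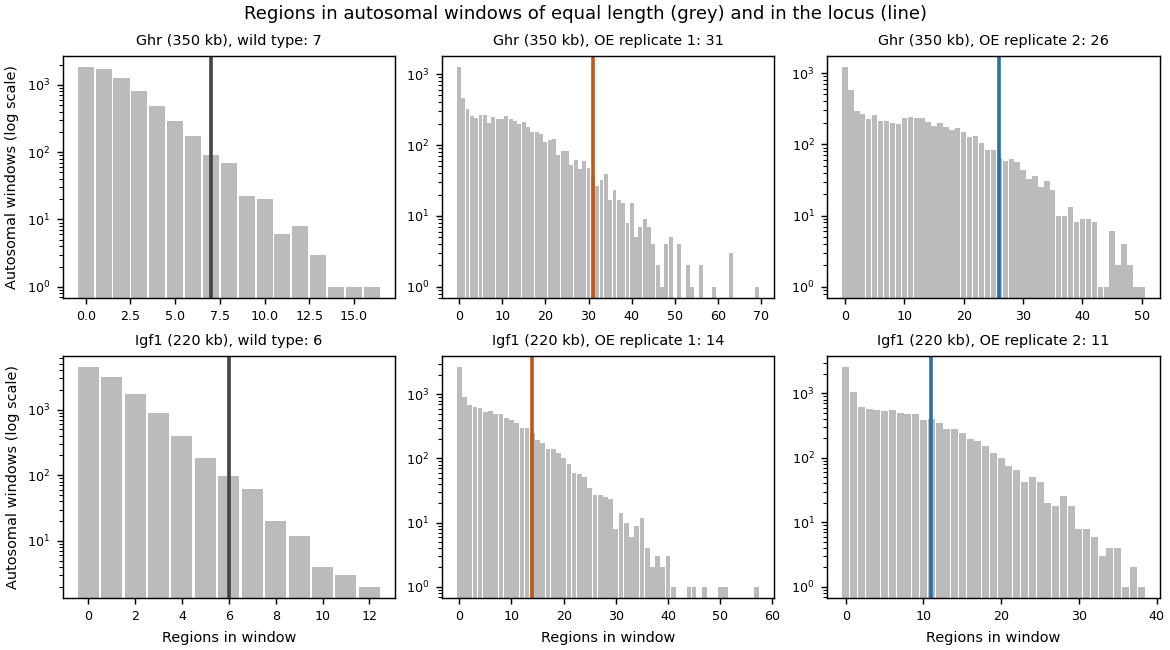
Number of autosomal windows (y axis, log scale) by the number of regions they hold (x axis), for windows of 350 kb (upper row, with Ghr) and 220 kb (lower row, with Igf1) in wild type and overexpression replicates 1 and 2. Coloured lines mark the loci: Ghr stands in the upper tail with 7, 31 and 26 regions, and Igf1 does so with 6 in wild type but not with 14 and 11.

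Regions were next compared by position. Overlapping regions of any list were merged, which gave 82 sites in the 5 windows. Of these, 3 were in all lists, 2 were in wild type and replicate 1, 22 were in both overexpression replicates without wild type, and 55 were in a single list (8 wild type, 20 replicate 1, 27 replicate 2). The 25 sites in both replicates are 30.5% of the sites, where 26.8% of the 113354 sites of the whole genome were in both. The 22 sites of both replicates without wild type were 26.8% of the sites here and 24.1% over the genome. Sites of a single list were 9.76% (wild type), 24.4% (replicate 1) and 32.9% (replicate 2) here, and 7.15%, 29.1% and 35.3% over the genome. By locus, both replicates had 15 of 38 sites at Ghr, 6 of 23 at Igf1, 2 of 9 at Igfals, 1 of 6 at Igfbp3 and 1 of 6 at Igfbp2 and Igfbp5.

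Of the 54 replicate 1 regions, 32 (59.3%) had a replicate 2 region on at least 1 of their bases, with a 95% exact interval of 45.0 to 72.4%. Of the 53 replicate 2 regions, 26 (49.1%) did so with replicate 1, with an interval of 35.1 to 63.2%. Over the whole lists the shares were 51.9% and 43.1%, both inside these intervals, which cover counting error only. The intervals treat regions as independent, although neighbouring replicate 1 regions can overlap the same replicate 2 region. With regions joined over gaps of at most 12 bp, 25 of 45 replicate 1 regions (55.6%) and 26 of 53 of replicate 2 (49.1%) were shared. As deposited, 21 of 31 and 16 of 26 regions were shared at Ghr, and 6 of 14 and 6 of 11 at Igf1. At Igfals 2 of 3 replicate 1 and 2 of 7 replicate 2 regions were shared, at Igfbp3 2 of 5 and 1 of 3, and at Igfbp2 and Igfbp5 1 of 1 and 1 of 6.

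Wild-type regions were found again in the overexpressing cells at 6 of 14 positions (42.9%, interval 17.7 to 71.1%), against 38.9% in the whole list. The share at these loci was 28.6% with a reciprocal overlap of 50% or more, and 21.4% with all lists reduced to equal length by width. At 1 bp, all 6 were overlapped by replicate 1 (42.9%, whole list 32.3%) and 4 of them by replicate 2 as well (28.6%, whole list 29.9%), so 4 (28.6%) were in both, against 23.3%. Seen from the other side, 6 of 54 replicate 1 regions (11.1%, whole list 6.55%) and 3 of 53 replicate 2 regions (5.66%, whole list 5.25%) overlapped a wild-type region. With so few regions the intervals are wide, and the share of the whole list lay inside each of them. The remaining 8 wild-type regions, 3 at Ghr, 4 at Igf1 and 1 at Igfals, had no overlap in either replicate.

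At Ghr the wild-type regions stood at 6 sites. The broadest, chr15:3250413-3251100, was 688 bp wide and overlapped a 578 bp region of replicate 1, with summits 70 bp apart, while the nearest replicate 2 region was 13013 bp away. A second, chr15:3358863-3359090, was 228 bp wide and lay within a site of all lists, where replicates 1 and 2 had widths of 428 and 503 bp. Here the wild-type and replicate 1 summits were 30 bp apart. Next to it, chr15:3359673-3359940 was 268 bp wide and was missed by replicate 1 by 432 bp and by replicate 2 by 602 bp.

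The regions chr15:3306133-3306700 (568 bp) and chr15:3461463-3461910 (448 bp) were in wild type alone. The nearest regions of replicates 1 and 2 were 2092 and 2119 bp from the first, and 2592 and 2889 bp from the second. The last site, near the end of the window, held neighbouring wild-type regions of 299 and 288 bp at chr15:3598343-3598641 and chr15:3598653-3598940. It was the widest Ghr site found in both replicates and was present in all lists. There replicate 1 had a pair of 719 bp regions and replicate 2 a single region of 1219 bp, and the site spanned 1449 bp. The summits of the second wild-type region and of the replicate 1 region that covers it were 65 bp apart.

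The overexpressing cells also had regions between these sites. The longest stretch of the window without a wild-type region was chr15:3461911-3598342 (136.4 kb). There replicate 1 had 8 regions, replicate 2 had 5, and 3 sites were in both. Such stretches are common, since 56.3% of autosomal windows of 130 kb had no wild-type region. The autosomes averaged 2.9 and 2.91 regions per 100 kb in replicates 1 and 2. As deposited, the widest region at these loci in either replicate was 1368 bp of replicate 2 at chr15:3385069-3386436. It had no wild-type counterpart, and replicate 1 had regions of 349 and 859 bp there. Replicate 1 had its own widest deposited region, 918 bp, at chr15:3394303-3395220, over a replicate 2 region of 556 bp. Many replicate 1 regions are split by 11 bp gaps, as described below. Its pair at chr15:3597813-3599261, split in this way, ran over 1.45 kb, so this ranking of widths holds for deposited regions only. Over the 13 Ghr sites found in both replicates without wild type, the nearest wild-type region was 2.1 to 66.4 kb away, with a median of 25.1 kb. These distances were not compared with those over the genome.

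Gaps of at most 2 kb made up 11 of 30 replicate 1 gaps in the Ghr window (36.7%, whole list 33.5%) and 7 of 25 replicate 2 gaps (28.0%, whole list 18.9%). Close spacing in replicate 1 was thus near that of its whole list. A run of 5 replicate 2 regions with gaps of at most 2 kb covered 1775 bp of the 2.62 kb at chr15:3413494-3416117, and replicate 1 had 2 regions there. At chr15:3338273-3339716, which spans 1444 bp, replicate 1 had regions of 589, 259 and 419 bp and replicate 2 had regions of 526 and 599 bp. At chr15:3318803-3319785 replicate 1 had 3 regions (269, 428 and 248 bp) where replicate 2 had 1 of 752 bp. At both of these sites replicate 1 held more regions than replicate 2 as deposited. Its regions there lie at most 12 bp apart, and joining across such gaps, described below, leaves replicate 1 with 1 region at each site.

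The lists also differ in how often regions lie next to each other, and the part of this in the counts was not tested beyond the joining described here. In replicate 1, 12778 of the 71541 gaps between neighbouring regions were exactly 11 bp, and 12896 (18.0%) were 2 to 12 bp. Gaps of at most 12 bp made up 1.82% of gaps in wild type and 0.12% in replicate 2. In the windows, 9 of 49 replicate 1 gaps (18.4%), 1 of 11 wild-type gaps and none of 48 replicate 2 gaps were of this size. Regions were also joined across such gaps, a setting added after the data were seen. The 5 windows then held 45 replicate 1 regions, 53 replicate 2 regions and 13 wild-type regions, and the Ghr window held 24, 26 and 6. Replicate 1 was then no longer ahead of replicate 2 at Ghr.

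**Figure D4:**
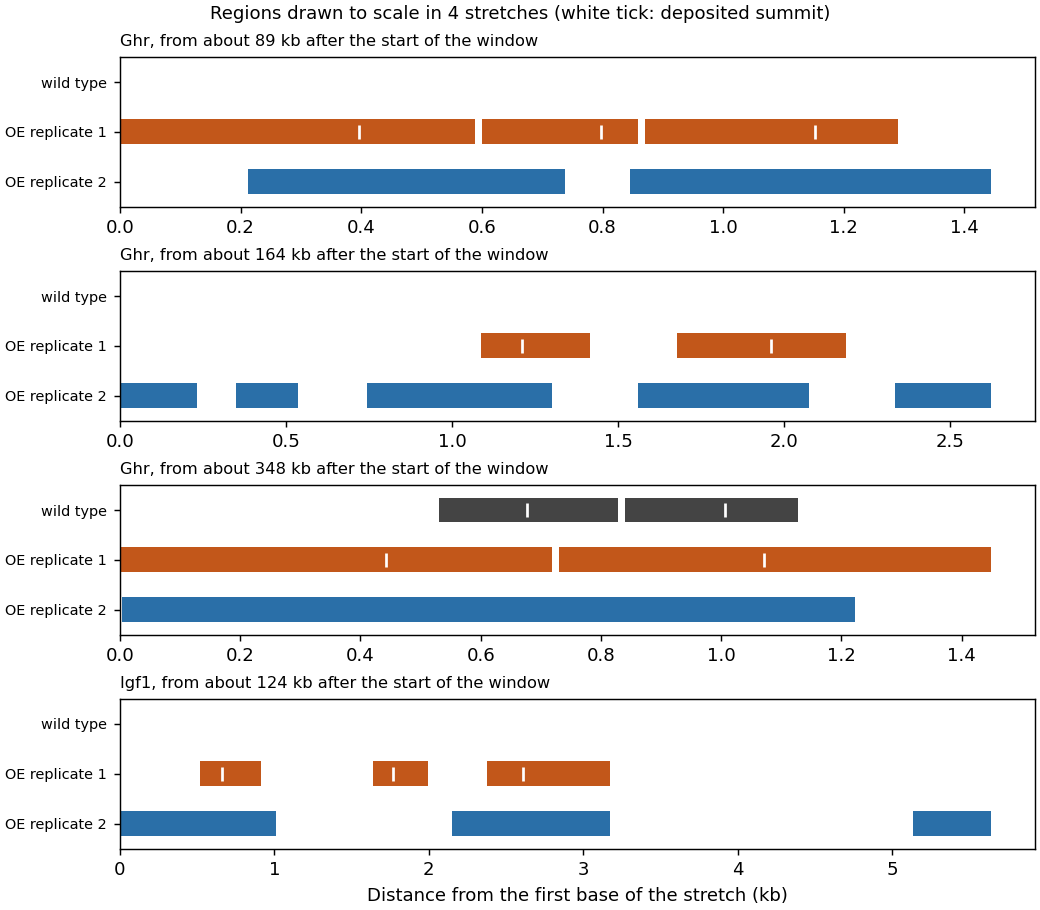
Regions of 3 stretches of the Ghr window and 1 of the Igf1 window drawn to scale, by list; the x axis is the distance from the first base of the stretch in kb, and white ticks are summits (replicate 2 has none in its list). In the Ghr stretches at about 89 and 348 kb replicate 1 is split by 11 bp gaps into 3 and 2 regions where replicate 2 has 2 and 1, and wild type is present at about 348 kb alone.

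At Igf1, 2 of the 6 wild-type regions (33.3%) overlapped a region of an overexpression list, near the 38.9% of the whole list. The 4 others were in wild type alone. The exception in all lists was chr10:87250473-87251040, 568 bp wide in wild type, with replicate widths of 729 and 667 bp, and with the wild-type and replicate 1 summits 85 bp apart. The region chr10:87339413-87339700 (288 bp) overlapped a 418 bp region of replicate 1, with summits 20 bp apart, the closest pair at these loci, and lay 2738 bp from the nearest replicate 2 region. The 4 others were chr10:87232313-87232630 (318 bp), chr10:87247033-87247251 (219 bp), chr10:87333743-87334061 (319 bp) and chr10:87388473-87388960 (488 bp). Of these, chr10:87333743-87334061 lay 941 bp from replicate 1 and 884 bp from replicate 2, and chr10:87232313-87232630 lay 17592 and 17825 bp from them.

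A block of Igf1 regions in the overexpressing cells had no wild-type counterpart. That is usual, since 6.55% of replicate 1 and 5.25% of replicate 2 regions overlapped wild type over the whole lists. The first region of the block was centred 123.7 kb from the start of the window. It lay inside the longest stretch without wild type there (82.7 kb, chr10:87251041-87333742), in which replicate 1 had 7 regions and replicate 2 had 5. Of 26743 autosomal windows of 90 kb, 17680 had no wild-type region, though chromosome 10 is denser than the autosomes in wild type. At chr10:87323176-87324185 replicate 2 had 1010 bp and replicate 1 had 399 bp. At chr10:87325324-87326350, the widest Igf1 site of both replicates, replicate 2 had 1022 bp and replicate 1 had 798 bp. Between these sites replicate 1 had a further region of 358 bp, and beyond them replicate 2 had one of 507 bp. A second pair followed at chr10:87334946-87335660 (658 and 520 bp in replicates 1 and 2) and chr10:87335918-87336674 (718 and 757 bp), of which the first lay 0.9 kb from a wild-type region.

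At Igfals the only sites of both replicates adjoined each other, at chr17:25014330-25014780 (428 and 415 bp in replicates 1 and 2) and chr17:25014853-25015320 (468 and 263 bp). The wild-type region, chr17:25029353-25029700 (348 bp), was 14032 bp from the nearest replicate 1 region and 5479 bp from the nearest replicate 2 region. Wild type, with this 1 region, and the overexpressing cells thus had no position in common here. In the whole list, 38.9% of wild-type regions overlapped a region of at least 1 overexpression list, so 1 region without overlap does not set the locus apart. The broadest region of the window, 865 bp at chr17:25023009-25023873, was in replicate 2 alone.

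At Igfbp3 a single site was in both replicates, chr11:7054691-7055430, which spans 740 bp with regions of 239 and 388 bp in replicate 1 and 438 bp in replicate 2. It lies 5.1 kb from the start of the window. The stretch after it was empty for 56.7 kb in replicate 1 and 55.3 kb in replicate 2, and each then had separate regions that the other lacked, at 60.6 to 93.3 kb. In the window of Igfbp2 and Igfbp5 the common site was chr1:72885923-72886415, where the regions of 229 and 345 bp shared 81 bp, the smallest overlap among the 20 sites with 1 region in each replicate. The nearest wild-type region was 111.8 kb from the Igfbp3 site and 125.2 kb from the Igfbp2 and Igfbp5 site.

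At those 20 sites the centres of the replicate regions were 0 to 230.5 bp apart, with a median of 86.25 bp, and neither replicate was regularly the wider (replicate 1 at 11, replicate 2 at 9). Where a replicate lacked a region of the other, the median distance to its nearest region was 4005.5 bp for the 22 unshared replicate 1 regions and 6752.0 bp for the 27 of replicate 2, and it lay within 1 kb for 3 and 5 of them. In the whole lists 24.0% and 14.6% of unshared regions lay within 1 kb of the other replicate. Most unshared regions thus lay more than 1 kb from any region of the other replicate, both at these loci and over the whole lists. The share within 1 kb at these loci was below that of the whole list for replicate 1 (13.6%) and above it for replicate 2 (18.5%).

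Widths were the last measure. The median width at the 5 windows was 318.5 bp for wild type (range 219 to 688), 423.5 bp for replicate 1 (159 to 918) and 414.0 bp for replicate 2 (166 to 1368), and the whole-list medians were 379.0, 398.0 and 378.0 bp. The wild-type median was the lower of its pair and the overexpression medians were the higher of theirs, with no test made. An interval for the wild-type median from the ranks of its 14 widths ran from 268 to 568 bp and held the whole-list value. Igf1 had the highest median widths of any window in the overexpressing cells, with 518.0 and 520.0 bp against 428.0 and 409.5 bp at Ghr. In wild type the medians were 318.5 bp at Igf1 and 299.0 bp at Ghr.

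Regions found in both replicates were wider at these loci, as over the genome. Sharing was defined by an overlap of 1 bp or more, which a wider region meets more easily, so this order is not independent of the rule. Replicate 1 regions that overlapped replicate 2 had a median of 443.0 bp and the others 383.0 bp, and in replicate 2 the medians were 523.0 and 320.0 bp. Over the whole lists they were 458.0 and 348.0 bp, and 468.0 and 329.0 bp. Among wild-type regions at these loci the order was the opposite, 293.5 bp for the 6 that an overexpression list overlapped and 333.5 bp for the 8 others. Their ranges (228 to 688 and 219 to 568 bp) overlap almost entirely. Over the whole wild-type list the order was that of the replicates, with medians of 388.0 bp for overlapped regions and 378.0 bp for the others.

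**Figure D5:**
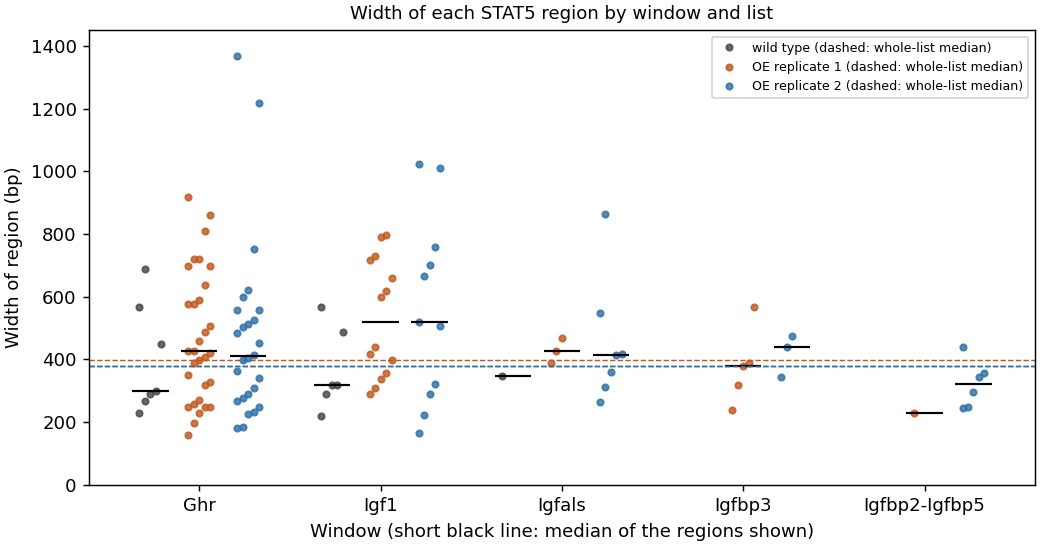
Width in bp (y axis) of each of the 121 regions by window (x axis) and list; black lines are medians of the points and dashed lines whole-list medians. The widest points, at 1368 and 1219 bp, are replicate 2 regions at Ghr, and all points of Igfbp3 and of Igfbp2 and Igfbp5 are at or below 568 bp. Regions are as deposited, so replicate 1 regions that are split by short gaps are separate points.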

How the data were processed

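STAT5 ChIP-seq regions of 3 libraries were used: stimulated wild-type cells (1 library) and stimulated STAT5A-overexpressing Stat5-/- cells (replicates 1 and 2), grouped by sample title. The authors deposited genome positions (start, end and, except in replicate 2, a summit) on build mm9, with no height, score or p-value, per the file headers. The region names of replicate 2 name MACS, per the file headers and names. How the remaining lists were called, and the aligner, thresholds and depth for all, is not given in the sources used here. Per the labels, the list of replicate 2 goes with an unstimulated and a stimulated STAT5 library, whereas each of the other lists goes with 1 STAT5 and 1 IgG library, and the controls used are not stated. The lists hold no expression values, so the cell type was not checked against markers.

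Positions were read as BED intervals and are printed counted from 1. A region belonged to a window by its centre, and regions with 1 bp or more in common were taken as shared. Intervals of shares are exact (Clopper-Pearson, 95%). Background windows of equal length were laid end to end on the autosomes, and on each locus's own chromosome, between the first and last region. Overlap counts matched bedtools 2.31.1 in 12 of 12 comparisons, and planted overlaps were recovered on simulated data. Software was scipy 1.17.1, pandas 2.3.3, numpy 2.4.6 and matplotlib 3.10.9 under Python 3.11.15.

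The loci, measures and alternatives were chosen with earlier results of these data known. The regions named by position are every wild-type region, every site of all lists, the widest site of both replicates in each window, and the widest region of each list, and others were chosen after their values were seen. Neighbouring genes were taken from RefSeq on GRCm38.p6 by name only (6 of 6 genes matched). The planned search for the STAT sequence in regions, and other genes of the pathway, needed an mm9 genome and mm9 gene positions and were not analysed here, so where in a gene a region lies is not given.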

Additional observations from a re-analysis of the deposited data

How the results depend on the processing

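Of 85 alternative values over 15 results, 67 stayed within 1.5 times the reported density, 1 SD of a mean width, or the interval of a share or of the wild-type median width, and 18 did not. In each case the cause was not tested. The density relative to the whole list is given for the mean of the replicates unless wild type is named. With every list reduced to as many of its widest regions as wild type has, it became 5.02 at Igf1 (1.95 as reported), 1.02 at Igfals (1.91), and 0 at Igfbp3 (1.25) and at Igfbp2 and Igfbp5 (0.924), and 43.8% of replicate 1 regions were then in replicate 2. With only regions at or above the median width it was 3.33 at Igf1 in wild type (5.0 as reported), 0 at Igfals in wild type (2.04) and 0.262 at Igfbp2 and Igfbp5. Windows enlarged by 50 kb on each side gave 0.873 at Igfbp3 in wild type (0 as reported) and 1.42 at Igfbp2 and Igfbp5. Counting any overlap with the window gave 4.08 at Igfals in wild type, through the 1 region at its edge. Without overexpression replicate 1 or replicate 2 the densities ranged from 2.55 to 3.05 at Ghr, 1.72 to 2.19 at Igf1, 1.15 to 2.67 at Igfals, 0.936 to 1.57 at Igfbp3, and 0.265 to 1.58 at Igfbp2 and Igfbp5. Asking for 50% overlap both ways lowered the 59.3% of replicate 1 regions that replicate 2 shared to 40.7%, and asking for centres within 200 bp lowered it to 37.0%. The mean of the overexpression median widths (419 ± 6.72 bp, SD, n = 2) was 470 bp as a mean of means and 461 bp with regions joined over gaps of at most 12 bp. At Ghr the alternatives kept the density between 2.55 and 3.68 in the overexpressing cells and between 3.14 and 3.67 in wild type. No paired analysis was possible because wild type has 1 library and no test was made. The alternative recognition sequence was not run, since it needs an mm9 genome. Library depth is unknown, so a window without a region does not show absence of binding.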
